A study of Rattus norvegicus with 5 samples.

Results

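The genes described here encode matrix and matrix-associated proteins that are known from tendon and other fibrous tissue, namely Tnmd, Dpt, Mfap4, Mfap5, Fndc1, Postn, Thbs2, Tnn, Angptl1 and Cpxm2. They were taken by name, with every probe set that the platform annotation gives to 1 of these symbols alone. This gave 11 probe sets for 9 of the 10 genes, among 14217 genes and 31042 probe sets that are not controls. Dpt and Cpxm2 have 2 probe sets each, and the other 7 genes have 1. No probe set is listed for Angptl1 in that annotation. The study itself pairs 1 probe set with Angptl1, and its values are given separately and enter none of the counts. The genes had been picked for their values on these same arrays, so all that follows is description.

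The arrays hold RNA of laser-captured cells from wild type, 5-week-old male Sprague-Dawley rats. From the surface of the mandibular condylar cartilage (MCC) downwards, the groups were the fibrous zone (FZ), the proliferative zone (PZ), the mature chondrocyte zone (MZ) and the hypertrophic chondrocyte zone (HZ), and the comparison tissue was the femoral condylar cartilage (FCC), of which only the middle and deep zones were captured. Each group is 1 array made from lysates of pooled sections of 7 µm, 30 sections per group by the sample labels, and the study's methods state a larger pool for FZ. The number of animals behind a pool is not stated. Without replicates no difference could be tested, and p-values are therefore left out.

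The MCC is a fibrocartilage, and its articular surface is a layer of flattened fibroblast-like cells, unlike the hyaline surface of the femur. Tendon and fibrous layers owe their strength to bundles of collagen fibrils, whose diameter and spacing are set by proteins that coat, link or space them, while microfibrils of fibrillin carry elastin and store growth factors. Matricellular proteins such as periostin, thrombospondins and tenascins bind both fibrils and cell surface receptors. In tendon the transcription factor Scleraxis acts upstream of Tnmd.

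All values below are log2 values relative to the median of the same probe set over the 5 arrays, so that the middle array of each probe set stands at 0. They compare arrays within a gene. A value of 0 does not mean absence, and levels of different genes cannot be set against each other. As captured cells were measured in bulk, fewer cells of a type and less RNA per cell cannot be told apart.

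Promoter windows were examined because these genes were high in the same zones. RefSeq windows on the rat build GRCr8 were found for 8 of the 10 genes, and 4 of them are shown, those of Tnmd and Mfap5, with large FZ differences, and those of Dpt and Fndc1, whose profiles over the arrays were much alike. Each window covers the 250 bases before the start that the promoter table gives, in the 5′ to 3′ direction of the gene. For Postn and Angptl1, which are counted below but not shown, this window lies inside the annotated span of the gene. Capitals mark CANNTG, the E-box motif that is bound by Scleraxis and by many other basic helix-loop-helix factors and reads the same on both strands, and TATAAA on the sense strand. The windows are at chrX:101350182-101350431 for Tnmd, chr13:79656091-79656340 for Dpt, chr4:157399669-157399918 for Mfap5 and chr1:49686606-49686855 for Fndc1, all on the plus strand.
Tnmd: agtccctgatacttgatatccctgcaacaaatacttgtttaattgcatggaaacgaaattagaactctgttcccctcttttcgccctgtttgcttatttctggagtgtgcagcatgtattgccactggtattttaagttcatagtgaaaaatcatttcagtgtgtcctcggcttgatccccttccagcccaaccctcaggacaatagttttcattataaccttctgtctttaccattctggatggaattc
Dpt: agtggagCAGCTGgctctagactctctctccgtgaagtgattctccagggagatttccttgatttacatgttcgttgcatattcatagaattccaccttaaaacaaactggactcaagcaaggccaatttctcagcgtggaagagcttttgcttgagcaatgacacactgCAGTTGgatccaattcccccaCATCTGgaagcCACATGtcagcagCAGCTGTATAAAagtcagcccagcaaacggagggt
Mfap5: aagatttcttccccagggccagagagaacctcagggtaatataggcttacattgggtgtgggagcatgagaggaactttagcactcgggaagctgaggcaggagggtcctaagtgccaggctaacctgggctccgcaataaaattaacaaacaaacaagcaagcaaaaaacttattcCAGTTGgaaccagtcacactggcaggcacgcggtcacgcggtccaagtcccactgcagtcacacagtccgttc
Fndc1: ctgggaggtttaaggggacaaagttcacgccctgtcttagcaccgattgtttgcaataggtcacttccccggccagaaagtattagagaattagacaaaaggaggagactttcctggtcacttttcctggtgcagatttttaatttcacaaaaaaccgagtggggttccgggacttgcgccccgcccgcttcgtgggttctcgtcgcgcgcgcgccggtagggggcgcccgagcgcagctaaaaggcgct

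The Dpt window held 5 CANNTG matches, which began 243, 80, 59, 48 and 35 bases before the start, and TATAAA directly after the last of them, 29 bases before the start. The Mfap5 window held 1 match of CANNTG, 73 bases before the start, and the windows of Tnmd and Fndc1 held 0. The number of matches thus differed between Dpt and Fndc1. Over all 8 windows CANNTG was found in 5, against 65.5% of 33469 windows of the same length, so the motif was about as common near other genes. A sense TATAAA that began between 40 and 20 bases before the start was present in Dpt alone, against 1.37% of all windows, and this stretch was chosen after the window had been read. Of the other motifs, searched on both strands, CATCTG, a form of CANNTG, was in 2 of 8 (14.0% of all windows), GGAATG, the TEAD motif, in 2 (12.1%), CAGAC, a SMAD motif, in 3 (42.9%), TATAAA anywhere in 3 (12.9%), and GTGGGCG, the core of the EGR1 site, in 0 (6.27%). These matches describe letters in short windows only.

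Across the zones of the MCC these genes were highest at the surface. FZ was the highest of the 5 arrays for 9 of 9 genes, as it was for 17.5% of all genes, and HZ was the lowest for 7 of 9, against 20.3% of all genes. The order FZ, PZ, MZ, HZ from high to low was found for 7 of 9 genes and for 5.45% of all genes. The exceptions were Tnmd and Mfap5, for which MZ was lowest, as it was for 9.24% of all genes. The genes were chosen on these arrays, so nothing is read from these shares.

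**Figure D1:**
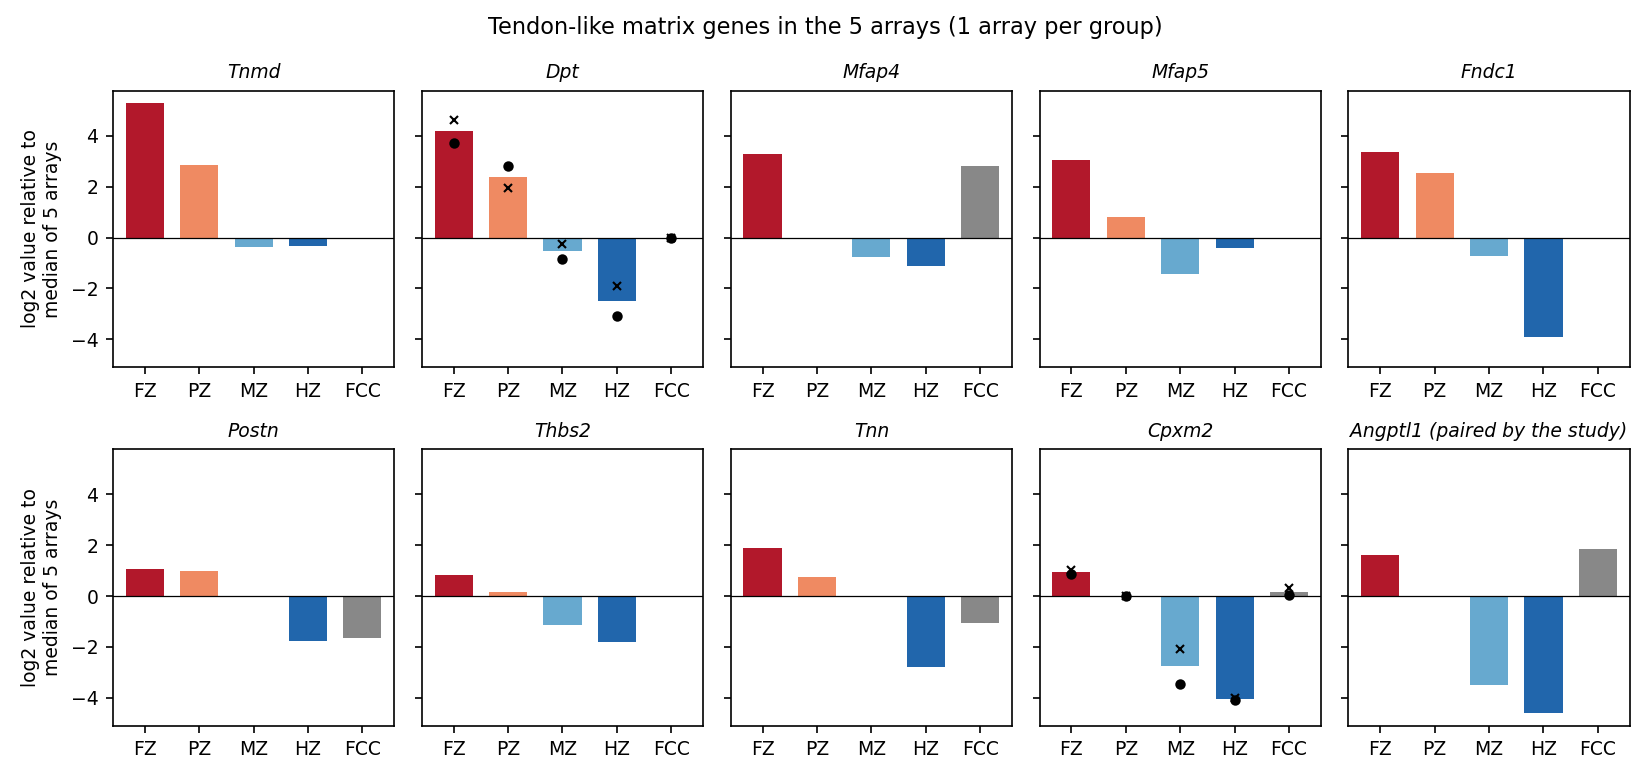
Log2 values relative to the median of the 5 arrays for the 10 genes, 1 panel per gene. Bars show the gene's value in FZ, PZ, MZ, HZ and FCC, with 1 array each, and for Dpt and Cpxm2, which have 2 probe sets, the bar is their mean and the circle and cross are the probe sets. A missing bar is a value of 0, the median. FZ is the tallest bar in every panel but that of Angptl1, where FCC is, an order that turns round when arrays are shifted by hybridization controls.

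Tnmd encodes tenomodulin, a type II transmembrane glycoprotein that marks mature tendon and ligament cells. It stood at 5.29 in FZ, 2.86 in PZ, −0.37 in MZ, −0.35 in HZ and 0.00 in FCC. The superficial zones were far above the other 3 arrays, which lay within 0.37 of each other. FZ exceeded FCC by 5.29, which is 39.0-fold, the largest difference from FCC among the 9 genes. MZ and HZ differed by −0.02, a difference within the probe set spread described further on.

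Dpt encodes dermatopontin, a small matrix protein that binds decorin and speeds up the assembly of collagen fibrils. By the probe set with the smaller FZ value it stood at 3.72 in FZ, 2.80 in PZ, −0.85 in MZ, −3.10 in HZ and 0.00 in FCC. By its other probe set it stood at 4.62 in FZ, 1.96 in PZ, −0.24 in MZ, −1.90 in HZ and again 0.00 in FCC. Both give the same order of arrays and much the same total, 6.81 and 6.52 for FZ minus HZ in that order, with a mean of 6.67, or 102-fold. They part on the step at the surface, since FZ minus PZ was 0.91 by the probe set named first and 2.67 by the other.

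Fndc1, which encodes a secreted protein with fibronectin type III repeats, came closest to Dpt. It stood at 3.36 in FZ, 2.52 in PZ, −0.71 in MZ, −3.91 in HZ and 0.00 in FCC. The distance between the Fndc1 and Dpt profiles, taken as the root of the summed squared differences over the 5 arrays, was 1.64. FZ exceeded HZ by 7.26, or 153-fold, the widest span of the 9 genes. Unlike Tnmd, Fndc1 separated the deep zones from each other, with MZ above HZ by 3.20.

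Mfap4 and Mfap5 are proteins of microfibrils and elastic fibres. Mfap4, which carries a fibrinogen-like domain and binds elastin and fibrillin, stood at 3.29 in FZ, 0.00 in PZ, −0.78 in MZ, −1.12 in HZ and 2.81 in FCC. It was thus high in FZ and in FCC and low in the rest of the MCC, PZ included, and PZ minus FCC was −2.81. Mfap5, which binds fibrillin, stood at 3.04 in FZ, 0.83 in PZ, −1.43 in MZ, −0.43 in HZ and 0.00 in FCC. Here FZ was alone at the top, and HZ exceeded MZ, the difference MZ minus HZ being −1.01.

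Postn, Thbs2 and Tnn are matricellular. Postn encodes periostin, which binds type I collagen and promotes collagen cross-linking in periosteum and periodontal ligament, and it stood at 1.06 in FZ, 0.98 in PZ, 0.00 in MZ, −1.77 in HZ and −1.66 in FCC. FZ minus PZ was 0.07, so the superficial zones were level, and HZ minus FCC was −0.10, so these were level at the bottom. Tnn encodes tenascin-W, a glycoprotein of periosteum and tendon, and stood at 1.88 in FZ, 0.75 in PZ, 0.00 in MZ, −2.78 in HZ and −1.06 in FCC. Postn and Tnn were each other's nearest neighbours among the 9 genes, at a distance of 1.46, and in both of them MZ lay above FCC, by 1.66 and 1.06. Thbs2, thrombospondin 2, an inhibitor of angiogenesis that takes part in fibril assembly, had the narrowest span, with 0.83 in FZ, 0.17 in PZ, −1.12 in MZ, −1.81 in HZ and 0.00 in FCC. Its FZ, PZ and FCC values lay within 0.83 of each other, and the 2 deep zones were below them.

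Cpxm2 encodes a carboxypeptidase-like protein with a discoidin domain that is thought to lack enzyme activity. By the probe set with the smaller FZ value it stood at 0.87 in FZ, 0.00 in PZ, −3.45 in MZ, −4.06 in HZ and 0.03 in FCC. By its other probe set the values were 1.01 in FZ, 0.00 in PZ, −2.06 in MZ, −4.02 in HZ and 0.32 in FCC. By both, the values farthest from the median were those of the deep MCC zones, and the probe sets differ on MZ minus HZ, 0.61 by the probe set given first and 1.95 by the other. Angptl1, an angiopoietin-like secreted protein, resembled it by the probe set that the study pairs with it, with 1.60 in FZ, 0.00 in PZ, −3.48 in MZ, −4.60 in HZ and 1.86 in FCC. For Angptl1, FCC and not FZ was the highest array, FZ minus FCC being −0.26, which turned to 0.39 when the arrays were shifted by their hybridization controls.

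With 1 array per group, the only spread at hand is that between probe sets of a gene. Over the 4525 genes with several probe sets, the SD of a difference between the probe sets of 1 gene had a median of 0.17 for FZ minus HZ, 0.26 for FZ minus FCC, 0.30 for FZ minus PZ, 0.31 for PZ minus MZ and 0.12 for MZ minus HZ. At the 90th percentile of genes it was 0.53, 0.72, 0.79, 0.84 and 0.33 in the same order of comparisons. This spread holds differences in probe performance and in transcripts, and none between animals. It is taken over all genes, and the probe sets of Dpt and Cpxm2 lay farther apart in some comparisons. Dpt gave 0.91 and 2.67 for FZ minus PZ, and Cpxm2 gave 0.61 and 1.95 for MZ minus HZ. A difference beyond the spread can therefore still be smaller than the disagreement of a gene's own probe sets. Differences under the 90th percentile are called within the spread below. Where it matters, values are also given after the arrays were shifted to equal means of their hybridization controls, transcripts added to each sample.

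FZ exceeded HZ by at least 2 on the log2 scale for 9 of 9 genes, where 1.06% of all 14217 genes did. The median of the 9 was 4.66 and the range 2.64 for Thbs2 to 7.26 for Fndc1, beside a median of 0.00 over all genes. The mean of FZ and PZ exceeded that of MZ and HZ by at least 2 for 7 of 9 genes (0.654% of all genes), the others being Postn at 1.90 and Thbs2 at 1.96. With FZ alone against the mean of MZ and HZ, a comparison without the PZ array that was added after the data were seen, the number was 8, against 0.907% of all genes.

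Between FZ and PZ the genes divided. Mfap4 (3.29), Tnmd (2.43) and Mfap5 (2.21) were at least 2 higher in FZ, which is 3 of 9, against 0.577% of all genes. Dpt (1.79), Tnn (1.13), Cpxm2 (0.94) and Fndc1 (0.84) were higher in FZ beyond the spread of 0.79, while Thbs2 (0.66) and Postn (0.07) were within it. After the shift by hybridization controls, Thbs2 stood at 1.25 and Postn at 0.66, beside a median of 0.59 over all genes, and Dpt at 2.37. At a difference of 1 the number was 5, against 6.1% of all genes. For Dpt the 2 probe sets fall on either side of 2, as given above.

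From PZ to MZ, 5 of 9 genes differed by at least 2, against 0.359% of all genes, namely Tnmd and Fndc1, both at 3.22, Dpt (2.92), Cpxm2 (2.76) and Mfap5 (2.26). Thbs2 differed by 1.29 and Postn by 0.98, and Mfap4 (0.78) and Tnn (0.75) were within the spread. After the shift by hybridization controls the number was 4, as Mfap5 stood at 1.80. Thbs2 (0.83) and Postn (0.52) were then within the spread, beside a median of −0.46 over all genes. The share of 0.359% holds for unshifted arrays and was not computed for shifted ones. From MZ to HZ, Fndc1 (3.20) and Tnn (2.78) differed by at least 2, 2 of 9 against 0.239% of all genes, with Dpt next at 1.95 and Postn at 1.77. The Dpt probe sets fall on either side of 2 here, with 1.66 by the one with the larger FZ value and 2.25 by the other. At a difference of 1 the number was 5, against 0.907% of all genes. These 5 include Cpxm2, whose probe sets gave 0.61 and 1.95. Mfap5 went the other way, at −1.01, and Tnmd was within the spread. The fall from MZ to HZ was not particular to these genes. Of 17 genes of hyaline cartilage, a list taken up below, 11 were at least 1 higher in MZ and 5 at least 2 higher. Their median was 1.66, beside 1.28 for the 9 genes.

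The largest of the 3 steps was FZ to PZ for 1 gene, Mfap4, PZ to MZ for 6 genes, Tnmd, Dpt, Mfap5, Fndc1, Thbs2 and Cpxm2, and MZ to HZ for 2, Postn and Tnn. Of all genes, 41.1% had their largest step from FZ to PZ, 38.3% from PZ to MZ and 20.6% from MZ to HZ. Several of these were close calls, such as 2.26 against 2.21 for Mfap5 and 3.22 against 3.20 for Fndc1. Under the same shift of the arrays, the numbers became 4, 2 and 3, with Tnmd, Mfap5 and Thbs2 moving to the FZ to PZ step and Fndc1 to MZ to HZ, and the shares of all genes became 90.1%, 4.11% and 5.77%. For Mfap4, Postn, Tnn and Cpxm2 the largest step stayed where it was. Dpt also stayed at PZ to MZ by the mean of its probe sets, but narrowly, with 2.46 against 2.37 for FZ to PZ after the shift. Without the shift, the Dpt probe set with the larger FZ value had its largest step at the surface, with 2.67 for FZ minus PZ and 2.20 for PZ minus MZ.

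**Figure D2:**
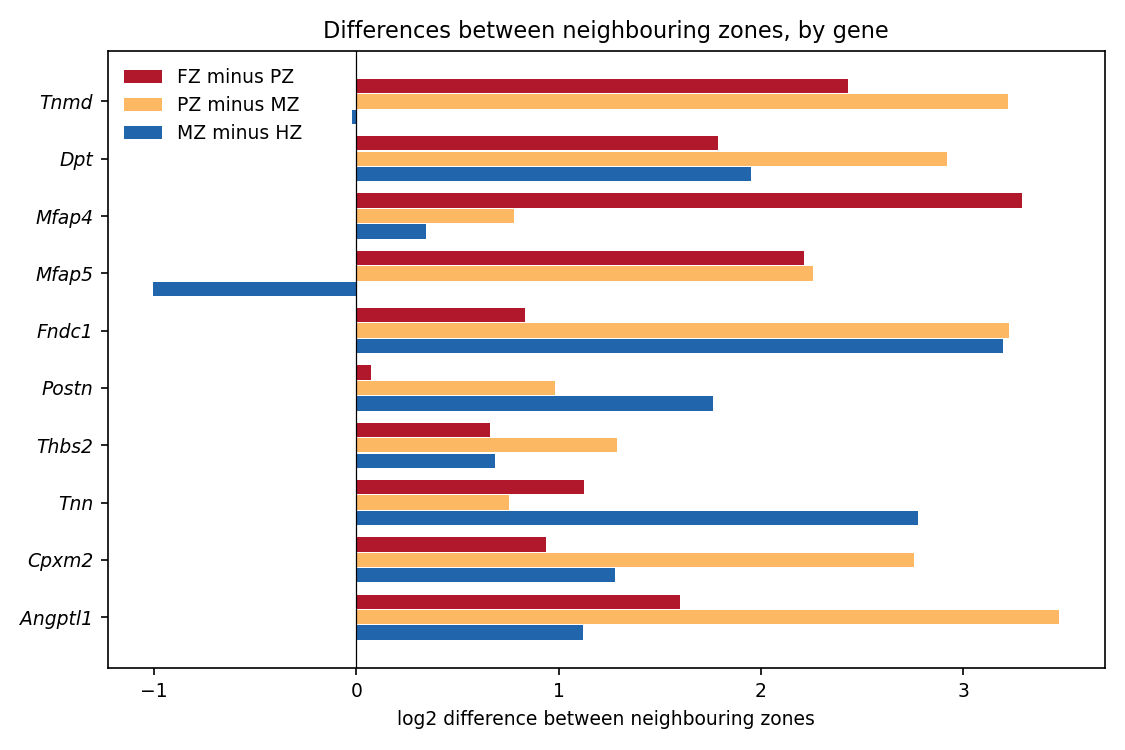
Log2 differences between neighbouring zones for each gene, 1 array per zone, with FZ minus PZ on top, PZ minus MZ in the middle and MZ minus HZ at the bottom of each group of bars. Mfap4 has its longest bar at the surface (3.29), Tnmd at PZ minus MZ (3.22) and Tnn at MZ minus HZ (2.78), and only Mfap5 (−1.01) and Tnmd (−0.02) have a bar left of 0.

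The name of a fibrous layer fits these genes unevenly once FCC is taken into account. FZ was at least 2 above FCC for 6 of 9 genes, against 0.837% of all genes, namely Tnmd (5.29), Dpt (4.17), Fndc1 (3.36), Mfap5 (3.04), Tnn (2.95) and Postn (2.72). Thbs2 (0.83), Cpxm2 (0.76) and Mfap4 (0.48) were higher in FZ by less than 1, and Mfap4 was within the spread of 0.72. So 3 of the 9 genes, and Angptl1, told the fibrous zone from the deep MCC zones but hardly from the middle and deep femoral cartilage. The shift by hybridization controls adds the same amount to this difference for every gene. After it, FZ minus FCC was 1.48 for Thbs2, 1.41 for Cpxm2 and 1.12 for Mfap4, beside a median of 0.66 over all genes.

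HZ was at least 2 below FCC for 4 of 9 genes, against 2.18% of all genes, namely Cpxm2 (−4.22), Mfap4 (−3.94), Fndc1 (−3.91) and Dpt (−2.50). By the Dpt probe set with the larger FZ value the difference was −1.90, and after the shift by hybridization controls Dpt stood at −1.97, which left 3 genes. The share of 2.18% holds for unshifted arrays only, and under the shift the median over all genes was 0.52. For Mfap5 (−0.43), Tnmd (−0.35) and Postn (−0.10) HZ and FCC were within the spread of 0.87, and after the shift by hybridization controls these 3 stood above 0, at 0.10, 0.18 and 0.42. PZ was at least 2 above FCC for 4 genes (0.598% of all genes), Tnmd, Postn, Fndc1 and Dpt, and below it for 1, Mfap4 (1.77%), and MZ was below it for 2, Mfap4 and Cpxm2 (1.49%). For Dpt, PZ minus FCC was 1.96 by the probe set with the larger FZ value and 2.80 by the other. All comparisons with FCC share that array, as all comparisons with HZ share the HZ array.

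**Figure D3:**
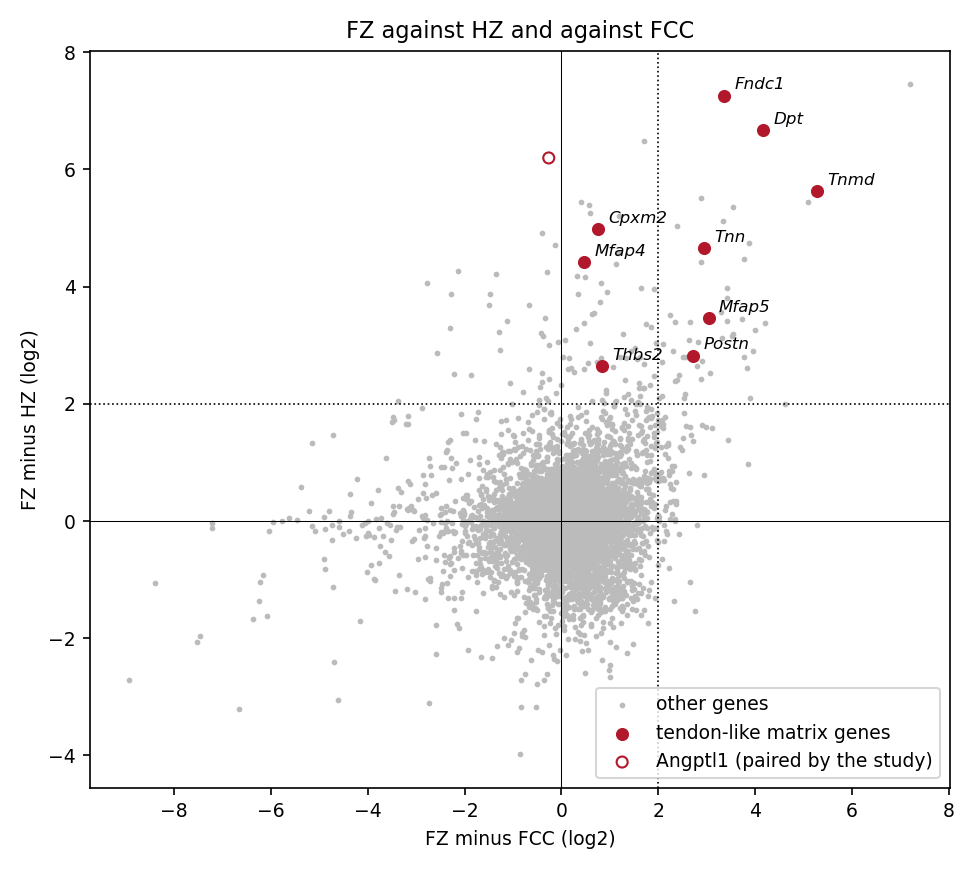
Log2 difference of FZ minus HZ against that of FZ minus FCC, 1 dot per gene, with 1 array per group. Grey dots are the other genes, filled red dots the 9 genes and the open circle Angptl1, and dotted lines mark a difference of 2. All 9 lie above the horizontal line, and Thbs2, Cpxm2 and Mfap4 lie left of the vertical line.

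Several facts on the arrays touch these values. The 18 hybridization control probe sets averaged −0.15 in FZ, 0.44 in PZ, −0.02 in MZ, −0.03 in HZ and 0.50 in FCC. Shifting the arrays to equal control means moves the median of all genes to 0.66 for FZ minus FCC, 0.59 for FZ minus PZ, −0.46 for PZ minus MZ, 0.52 for HZ minus FCC and −0.17 for superficial minus deep zones, and differences are given here relative to unshifted arrays. For GAPDH the value of the 5′ probe set minus that of the 3′ probe set was 1.36 in PZ and between −0.21 and 0.27 on the remaining arrays. For beta-actin this difference was 1.24 in FCC and between −0.24 and 0.14 elsewhere. Each probe set stands relative to its own median, so these differences compare arrays only. They do not show which end gave more signal on an array. The part of transcript integrity in the PZ and FCC differences was not tested. FZ minus HZ and MZ minus HZ do not use these 2 arrays, but the FZ, MZ and HZ arrays also differed. The 5′ minus 3′ value of GAPDH was −0.07 in FZ, −0.13 in MZ and 0.27 in HZ. That of beta-actin was 0.14 in FZ, −0.10 in MZ and −0.24 in HZ. The part of transcript integrity in those 2 differences was not tested either.

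Markers of other cells also moved between the zones. Genes of hyaline cartilage had a mean of −1.67 in FZ, 0.02 in PZ, 0.41 in MZ, −1.13 in HZ and 2.74 in FCC, and 15 of 17 were at least 1 lower in FZ than in FCC, against 4.21% of all genes. By the superficial minus deep difference, 7 of 8 markers of red blood cells were lower by 1 or more, as were 9 of 13 leukocyte genes and 5 of 11 endothelial genes, against 3.78% of all genes, and 0 in each were higher by as much. The erythroid mean was −0.73 in FZ and −0.88 in PZ, against 0.74 in MZ and 1.5 in HZ, and the leukocyte mean was −0.14 and −0.85 in FZ and PZ, against 0.81 and 1.10 in MZ and HZ. Of 11 skeletal muscle genes 1 was at least 1 higher in the superficial zones, where 2.24% of all genes were. This was Myh2, a fast myosin heavy chain, at 2.70 in FZ, 0.00 in PZ, 0.69 in MZ, −0.10 in HZ and −1.06 in FCC. Of 5 synovial lining genes 0 were higher and 2 were lower, and of 13 genes of hypertrophy and bone 0 and 6. Of 10 smooth muscle genes 1 was higher, Tagln at 1.53, and 0 were lower, of 7 adipocyte genes 0 and 1, and of 6 Schwann cell and nerve genes 1 and 0. Of 17 hyaline cartilage genes 3 were higher and 7 lower. The 3 were Ucma (2.29), Hapln1 (1.37) and Acan (1.36). Ucma and Acan fell in the order FZ, PZ, MZ, HZ, as most of the 9 genes did, with FZ minus HZ at 4.22 and 2.28. Because the values hold no level, whether a marker was detected at all cannot be read from them, and the part of other cells in the differences was not tested.

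The relatives of these genes were examined next, from a list that was put together with earlier results of the series known. Of 15 measured relatives, 5 were at least 1 higher in the superficial than in the deep zones (2.24% of all genes) and 2 were lower, the median over the list being 0.29. The widest contrast was that of Tnmd with Cnmd, chondromodulin, its closest relative, which inhibits angiogenesis in cartilage. Cnmd stood at −2.06 in FZ, −0.25 in PZ, 2.08 in MZ, 0.00 in HZ and 5.46 in FCC. FZ minus FCC was thus 5.29 for Tnmd and −7.52 for Cnmd, and superficial minus deep was 4.43 for Tnmd and −2.19 for Cnmd.

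The other relatives were mixed in direction. Mfap2, which like Mfap5 binds fibrillin, stood at 1.65 in FZ, 0.00 in PZ, −0.95 in MZ, −1.07 in HZ and 0.91 in FCC, so that it was high in FZ and FCC as Mfap4 was. Tgfbi, which shares the fasciclin domains of periostin, stood at 1.33 in FZ, 0.63 in PZ, −0.61 in MZ, −1.45 in HZ and 0.00 in FCC. Cpxm1 stood at 1.51 in FZ, 0.07 in PZ, −0.68 in MZ, −1.44 in HZ and 0.00 in FCC, so that FZ minus FCC was larger for Cpxm1 (1.51) than for Cpxm2 (0.76), while HZ minus FCC was −1.44 for Cpxm1 and −4.22 for Cpxm2. Superficial minus deep was 2.02 for Tgfbi, 1.85 for Cpxm1 and 1.83 for Mfap2, and Aebp1, a further carboxypeptidase-like matrix protein, was at 0.65. The carboxypeptidases Cpz (−1.32) and Cpe (−0.41) were lower in the superficial zones.

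Among the thrombospondins, Thbs3 went further than Thbs2, with superficial minus deep at 2.75, while Thbs4 was at 0.29. Comp, the pentameric thrombospondin of cartilage and tendon, was at 0.01, since it was low in FZ (−2.33) and in HZ (−2.63) and higher in PZ (0.00) and MZ (0.29), against 1.60 in FCC. Of the tenascins, Tnc stood at 1.22 in FZ, 0.22 in PZ and 0.00 in both MZ and HZ, against −1.28 in FCC, so FZ minus FCC was 2.50 for Tnc and 2.95 for Tnn. Tnc did not share the low HZ value of Tnn, its FZ minus HZ being 1.22 against 4.66 for Tnn. Tnr, the tenascin of the nervous system, stayed within 0.18 of its median on all 5 arrays. Angptl2 had the largest difference of the relatives, 3.05 for superficial minus deep, with 1.74 in FZ, 1.52 in PZ, −1.23 in MZ, −1.62 in HZ and 0.00 in FCC, whereas Angptl4 (−0.81) and Angptl6 (−0.13) were not higher at the surface.

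**Figure D4:**
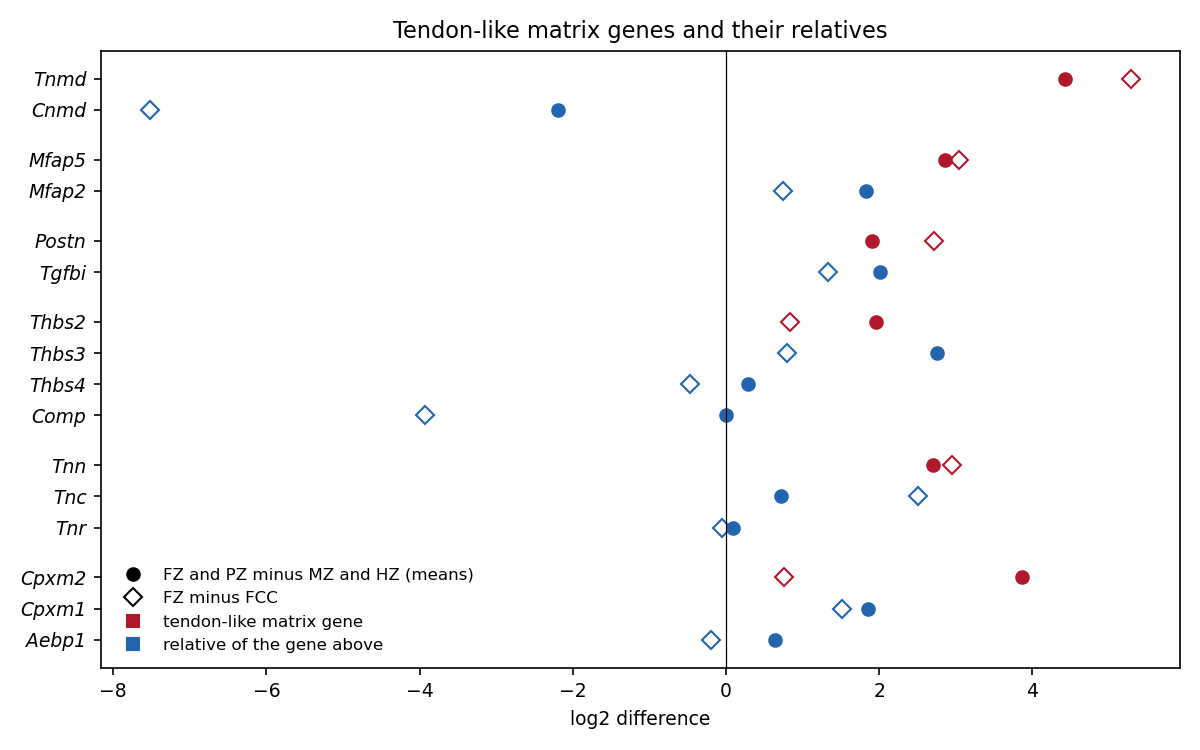
Log2 differences of 6 of the genes (red) and of their relatives (blue, below each), with circles for the mean of FZ and PZ minus the mean of MZ and HZ and open diamonds for FZ minus FCC. Tnmd lies right of 0 by both measures and Cnmd left of 0 by both, at −2.19 and −7.52.

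Other matrix genes of tendon shared the zonal difference in part. At a difference of 1, 2.24% of all genes were higher in the superficial zones and 3.78% were lower. Of 13 tendon collagens 7 were at least 1 higher in the superficial zones and 0 were lower, with a median of 1.05. Col14a1 led at 3.76, with Col16a1 at 2.34, both of which associate with collagen fibrils. Col1a1 and Col1a2, the chains of type I collagen, were at −0.74 and −0.22. Of 10 small proteoglycans 4 were higher and 0 lower (median 0.42), with Aspn (3.88), Fmod (3.02) and Prelp (2.72) at the top and Omd (−0.89) at the bottom, and Dcn, the partner of dermatopontin, at −0.45.

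Of 20 genes of microfibrils and elastic fibres 5 were higher, against 2.24% of all genes, and 0 lower, against 3.78% (median 0.08). Ltbp4, which anchors latent TGF-beta in the matrix, was at 3.03, the lysyl oxidase Loxl1 at 2.02 and Fbn2 at 1.49, while the fibrillin Fbn1 was at 0.44, elastin (Eln) at 0.45 and Fbln5 at −0.79. Between FZ and PZ, 7 of these 20 were at least 1 higher in FZ (6.1% of all genes), with Fbn2 the highest at 2.47. Fbn2 stood at 2.47 in FZ and between −0.48 and 0.04 in the other 4 arrays.

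Regulators, receptors and other fibroblast genes had medians near 0. Of all genes, 2.24% were at least 1 higher in the superficial zones and 3.78% were lower. Of 16 regulators and signals of tendon 2 were at least 1 higher in the superficial zones, Eya1 (1.66) and Scx (1.01), and 0 were lower, with a median of 0.13. Scx, which encodes Scleraxis, stood at 1.04 in FZ, 0.68 in PZ, 0.00 in MZ, −0.31 in HZ and −0.94 in FCC, and Egr1, also known from tendon, at −0.72 in FZ, −0.84 in PZ, 0.15 in MZ, 0.00 in HZ and 1.56 in FCC. Under the shift by hybridization controls, for which no share of all genes was computed, 1 of the 16 remained at this size. Of 15 receptors and partners, among them integrins that bind periostin and tenascins, 3 were higher and 0 lower (median −0.17), namely P4ha3 (3.74), a subunit of collagen prolyl hydroxylase, Itga11 (1.18), of a collagen receptor, and Itga8 (1.08). Bmp1, the procollagen proteinase, was lowest at −0.83. Of 12 genes of periosteum and fibroblasts 3 were higher and 1 was lower (median 0.12), from Igfbp6 at 3.01 to Dpp4 at −1.30.

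**Figure D5:**
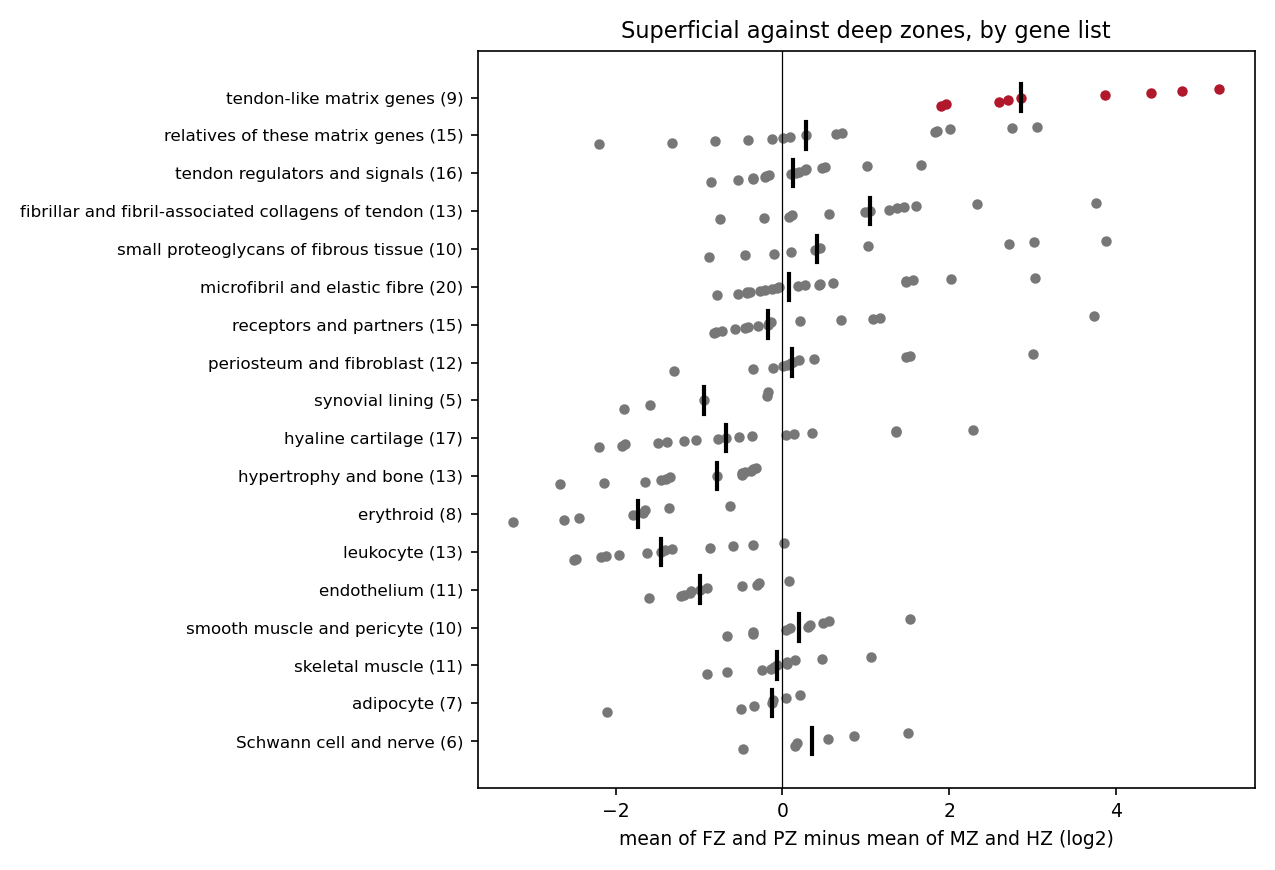
Mean of FZ and PZ minus mean of MZ and HZ on the log2 scale, with 1 dot per gene, a black bar at the median and the number of measured genes in brackets. The 9 genes (red) span 1.90 to 5.24, and the lists below them, of related matrix genes and of other cell types, have medians between −1.73 for erythroid genes and 1.05 for tendon collagens.

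The mean profile of the 9 genes was 2.65 in FZ, 1.17 in PZ, −0.86 in MZ, −2.08 in HZ and 0.03 in FCC. Of all other genes the nearest to it by distance over the 5 arrays was Tnfaip8l3 (0.61), with 2.89 in FZ, 1.08 in PZ, −0.96 in MZ, −1.53 in HZ and 0.00 in FCC. It was followed by Sncaip (1.08), Ephb3 (1.09), Angptl2 (1.14) and Lrrn4cl (1.29). Likeness here is a description over 5 arrays and carries no statement on function.

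Taken singly, the genes had different nearest neighbours. Thbs2 was matched most closely, by Zfp521, a zinc finger protein, at a distance of 0.25, and Tnmd least closely, by Plxdc1 at 1.96. The nearest gene to Dpt was Aspn (1.53), to Fndc1 C1qtnf3 (1.53), to Mfap4 C1qtnf2 (1.34) and to Mfap5 Olfml1 (1.16). Anxa8 was nearest both to Postn (0.92) and to Tnn (1.42), and Npas2 to Cpxm2 (0.93). C1qtnf2 stood at 2.03 in FZ, 0.00 in PZ, −0.63 in MZ, −1.39 in HZ and 3.15 in FCC, so it was high in FZ and FCC as Mfap4 was. Among themselves the 9 genes were as far apart as 6.82, the distance of Tnmd from Cpxm2.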

How the data were processed

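Captured cells of 5 groups were measured on Affymetrix rat genome arrays, 1 array per group, after RNA was amplified in linear cycles. The authors deposited log2 values obtained by RMA with quantile normalization and a baseline to the median of each probe set, after MAS5 summarization by the study's methods. How MAS5 and RMA were joined is not stated. The values hold no signal over background, and precision is limited by the number of arrays. The authors' filter on low intensities was not applied. After 57 control probe sets were set aside, 31042 of 31099 remained, of which 20826 carry 1 gene symbol, 436 several and 9780 are not listed in the platform annotation. Symbols were updated through RefSeq (GRCr8).

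A gene's value was the mean of its probe sets. Log2 differences were computed for 10 pairs of arrays and for superficial minus deep zones in pandas 2.3.3 and numpy 2.4.6 (Python 3.11.15), and drawn with matplotlib 3.10.9. Genes were counted at a difference of at least 2, and members of 17 lists at 1. The functions were run on simulated data with planted differences larger than the threshold. This checks the code alone and says nothing on the reliability of the values given here. The genes and lists were chosen with earlier results of these data known. Named genes are these 10, their relatives, the genes at the ends of each list with single genes of interest, and the nearest genes by profile. The alternatives were the probe set with the largest SD, centring on the array median, a shift by hybridization controls, other thresholds and likeness by correlation. Added after the data were seen were Angptl1 and superficial zones without PZ. Planned protein comparisons could not be made without protein sequences.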

Additional observations from a re-analysis of the deposited data

How the results depend on the processing

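No paired analysis was possible because each group has 1 array. The counts of the 9 genes at a difference of at least 2 kept to within 1.5 times under the probe set with the largest SD, under centring on the array median, under the shift by hybridization controls and with Angptl1 added. At a threshold of 1 the number for FZ minus PZ was 5 in place of 3, where the shares of all genes were 6.1% and 0.577%. For MZ minus HZ it was 5 in place of 2, with shares of 0.907% and 0.239%. At 1.4 it was 4 for MZ minus HZ, and no share of all genes was computed there. At a threshold of 2 in place of 1, these lists had fewer genes higher in the superficial zones, where 0.654% of all genes were. The numbers were 3 relatives, 0 tendon regulators, 2 tendon collagens, 2 microfibril genes, 1 receptor or partner and 1 gene of periosteum and fibroblasts. Fewer were lower, with 1 of hyaline cartilage, 4 of leukocytes and 3 of erythroid cells. The share of all genes lower by 2 was not computed, so nothing is read from these lower counts. The shift by hybridization controls left 1 tendon regulator, and under it the medians of tendon regulators, microfibril genes and genes of periosteum and fibroblasts turned to −0.04, −0.09 and −0.05. When likeness was taken as correlation, 2 of the 5 nearest genes were shared. Of 99 single differences, 85 moved by less than the median spread between probe sets under the probe set with the largest SD, 45 under the hybridization shift and 99 under centring, and no difference of at least 2 changed sign. The dependence on the shift follows from its construction, which moves whole arrays. With log2 values alone, signal over background is unknown.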
